A study of Mus musculus with 7 samples.

Results

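The 48 genes described here make sterols and fatty acids, sense sterol, move it within and out of the cell, or bind oxysterols. They were taken by symbol from a list of these pathways, out of 35727 genes in the count table, and all 48 had enough counts to be tested. RNA-seq compared tumour cells of 2 mouse models of undifferentiated pleomorphic sarcoma, a cancer of soft tissue with no clear line of differentiation. Both models share the loss of p53: each began as mesenchymal stem cells of female p53KO C57/Bl6 mice, into which a retrovirus brought either Ccne1, the gene of cyclin E1, or Vgll3, a cofactor of TEAD transcription factors. The p53KO Ccne1 OE and p53KO Vgll3 OE cells were passaged 2 times under the skin of female wild-type C57/Bl6 mice. After a short expansion in culture they were transplanted into experimental mice, and RFP-positive cells were sorted from the resulting tumours. There were 4 libraries of the Ccne1 model and 3 of the Vgll3 model. The labels name 1 cell line per model and give no age, time or treatment for the experimental mice. The effect of the transduced gene and other differences between the 2 lines therefore cannot be told apart.

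Cells build cholesterol from acetyl-CoA through mevalonate and farnesyl diphosphate, then squalene and lanosterol. The SREBP transcription factors switch these enzymes on when membrane sterol is low; SCAP escorts SREBP to the Golgi for cleavage, and the INSIG proteins hold the complex back in the endoplasmic reticulum when sterol is plentiful. The LXR receptors respond to oxysterols, which are oxidised forms of cholesterol, and switch on sterol efflux. Oxysterol-binding proteins exchange sterols and other lipids where membranes touch.

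Library totals ranged from 21725890 to 53610300 estimated counts, so that 3 counts, taken as the detection floor, equalled 0.0577 to 0.136 CPM (each count relative to its library's total, scaled by TMM, the trimmed mean of M values). Vgll3 was 50.7 ± 8.56 CPM (SD, n = 4) in the libraries labelled Ccne1 and 252 ± 34.6 CPM (SD, n = 3) in those labelled Vgll3 (edgeR adjusted p = 1.2e-05). Ccne1 was 12.7 ± 5.61 and 14.9 ± 2.16 CPM (edgeR adjusted p = 0.609), so its own level did not bear out the Ccne1 label, and the groups are named by their labels. Whether the table counts a transcript made from the vector is not given in the sources used here. Vgll3-labelled replicate 3 stood apart, with a correlation across genes of 0.971 and 0.975 with the other libraries of its group where the other pairs of libraries in either group reached 0.989 to 0.993. Mesenchymal markers summed to 21568 to 26849 CPM in the Ccne1-labelled and 33833 to 40803 CPM in the Vgll3-labelled group, and 3 genes made up most of that sum. Vim was lower, at 13964 and 4372 CPM, while Col1a1, at 4510.1 and 13390 CPM, and Col1a2, at 4194 and 17299 CPM, were higher. Thy1 stayed at or below 9.41 CPM in every library, and Fap averaged 0.662 and 19.4 CPM. Endothelial markers summed to 38.9 to 108 and 27.4 to 209 CPM, the highest being Vgll3-labelled replicate 3, where Pecam1 alone reached 184 CPM. Erythroid markers summed to 5.73 to 10.3 and 0.189 to 2.21 CPM, led by Hba-a1. Sums of adipocyte (Fabp4 highest, Lep and Cidec at 0), neutrophil (Cxcr2 highest), lymphocyte (Cd79a highest), and keratinocyte and sebocyte markers (Krt10 highest, Krt5 at 0) stayed at or below 5.42 CPM in every library. The part of these cell markers in the results was not tested, and in bulk samples fewer cells of a type and less RNA per cell cannot be told apart. The labels do not say that the libraries came from separate tumours, so the p-values reflect variation among libraries that may be in part technical.

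Most sterol synthesis genes that passed the test were higher in the Vgll3-labelled group, whereas both LXR genes were lower. Of the 8 oxysterol-binding genes that passed, 5 were lower and 3 higher, near the split of 3679 lower and 3454 higher over all genes tested. Of the 48 genes, 22 were higher and 13 lower at an edgeR adjusted p of 0.05, and 13 did not pass. The comparison changed much of the transcriptome: 51.9% of the 13740 genes tested passed, 25.1% higher and 26.8% lower. The list was chosen with earlier results of these data known, so a higher share in it is not independent support. Among the 48 genes 72.9% passed. Their median log2 fold change, always Vgll3-labelled over Ccne1-labelled, was 0.25 against 0.01 over all genes tested, and their median absolute log2 fold change was 0.55 against 0.43. The groups of libraries did not overlap for 33 of the 48 genes, 20 higher and 13 lower, and for 55.7% of all genes. Without Vgll3-labelled replicate 3 the counts were 20 higher and 11 lower.

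**Figure D1:**
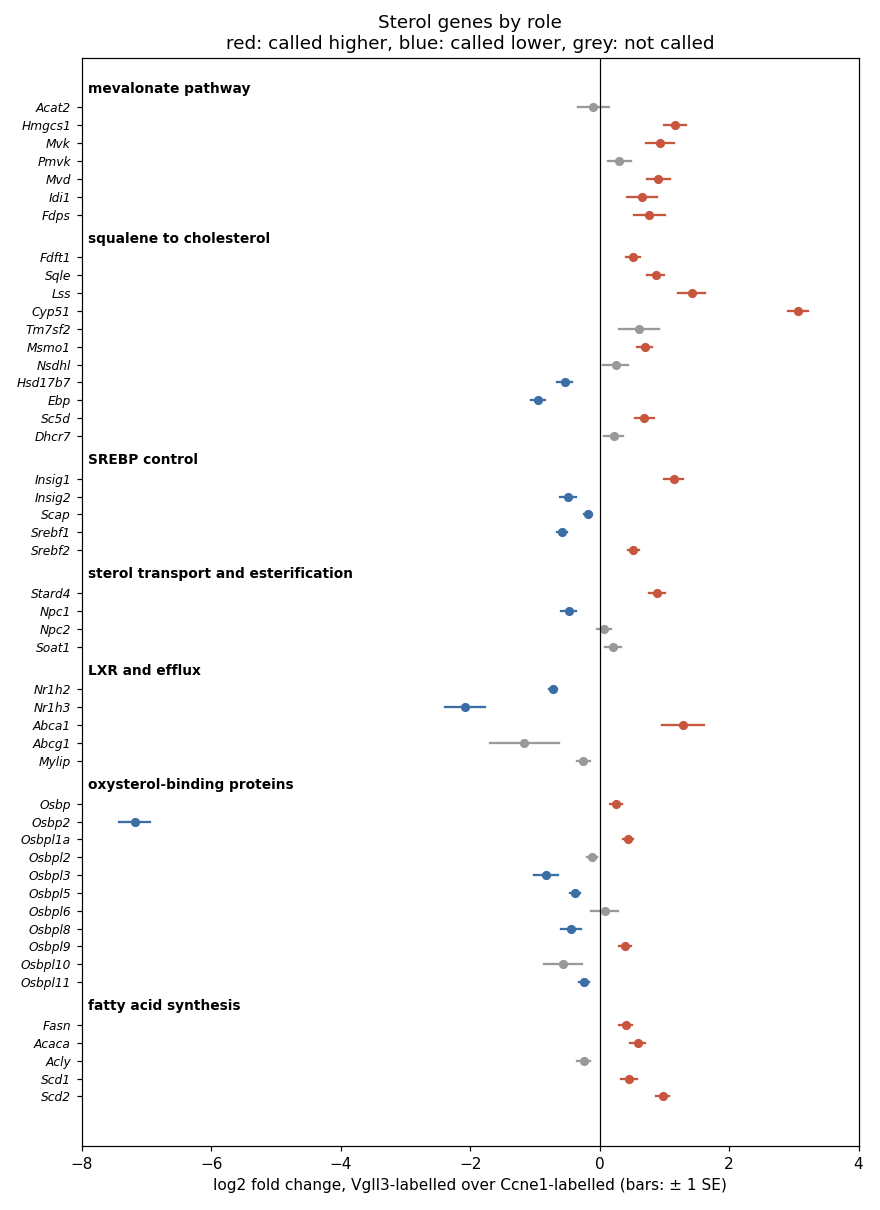
Log2 fold change (x axis, Vgll3-labelled over Ccne1-labelled) of each of the 48 genes, grouped by role, with bars of ± 1 SE from the edgeR fit to 4 and 3 libraries. Cyp51 lies farthest to the right at 3.07 and Osbp2 farthest to the left at -7.18, and 8 genes differ at least 2-fold.

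Promoters of 4 synthesis genes and of Insig1 are shown because these genes rose together in the results below and are known SREBP targets. Of the 48 genes, 38 had promoters in the RefSeq table used (GRCm38.p6, 53 promoters, each 250 bases before to 50 after an annotated start). The stretches below are 200 bases long, 5′ to 3′ on the gene's strand, and hold no base that the GENCODE annotation puts in an exon of a protein-coding gene. Capitals mark the SREBP consensus TCACNCCAC, the E-box CACGTG or the NF-Y box CCAAT, which reads ATTGG when it lies on the opposite strand. The motifs do not overlap each other in these stretches. The positions are chr13:119690151-119690350 (plus strand) for Hmgcs1, chr8:122443423-122443622 (minus strand) for Mvd, chr10:76531388-76531587 (plus strand) for Lss, chr5:4104747-4104946 (minus strand) for Cyp51 and chr5:28071163-28071362 (plus strand) for Insig1.
Hmgcs1: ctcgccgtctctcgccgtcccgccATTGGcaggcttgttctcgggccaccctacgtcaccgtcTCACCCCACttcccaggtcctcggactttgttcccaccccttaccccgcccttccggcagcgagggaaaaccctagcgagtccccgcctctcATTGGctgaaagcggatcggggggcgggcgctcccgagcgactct
Mvd: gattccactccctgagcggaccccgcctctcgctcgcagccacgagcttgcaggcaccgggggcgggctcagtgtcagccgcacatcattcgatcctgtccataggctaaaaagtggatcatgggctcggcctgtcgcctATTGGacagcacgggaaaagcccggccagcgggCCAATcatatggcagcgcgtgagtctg
Lss: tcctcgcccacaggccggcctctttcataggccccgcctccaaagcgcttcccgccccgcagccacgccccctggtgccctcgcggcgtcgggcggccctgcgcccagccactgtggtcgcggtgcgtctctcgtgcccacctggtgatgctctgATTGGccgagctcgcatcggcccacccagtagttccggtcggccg
Cyp51: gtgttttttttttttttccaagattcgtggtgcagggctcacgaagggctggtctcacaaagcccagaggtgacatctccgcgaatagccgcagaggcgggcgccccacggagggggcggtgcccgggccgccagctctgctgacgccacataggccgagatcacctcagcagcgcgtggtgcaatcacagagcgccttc
Insig1: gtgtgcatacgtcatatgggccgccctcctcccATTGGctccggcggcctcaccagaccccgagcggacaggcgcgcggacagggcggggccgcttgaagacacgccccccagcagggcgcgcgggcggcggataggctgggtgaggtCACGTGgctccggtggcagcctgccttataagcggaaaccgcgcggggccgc

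The NF-Y box, bound by the trimeric factor NF-Y that acts beside SREBP at sterol genes, was the most frequent of the 3 motifs in these promoters. The 18 promoters of synthesis enzymes belong to 15 genes, since some genes have several and Fdps, Fdft1 and Sqle had none. The NF-Y box was present in 14 of these 18 promoters (77.8%) and in 14 of the 15 genes. It was also present in 32 of the 53 promoters of the 38 matched genes (60.4%), against 37.4% of all 32851 promoters in the table. In Cyp51 the 1 NF-Y box begins at position -29 from the RefSeq start, in bases that GENCODE counts as exon, and so outside the stretch printed. The E-box was present in 10 of the 53 promoters (18.9%), among them Insig1, Dhcr7, Hsd17b7, Sc5d and Abca1, against 7.15% of all promoters. The SREBP consensus in these letters was found in 1 of the 53 promoters, that of Hmgcs1 at position -137 from the start, and in 1.24% of all promoters. A match describes these letters in this window and is not evidence of binding. Synthesis genes that were lower carried the box too: Ebp and Hsd17b7 held 2 and 3 NF-Y boxes, while Hmgcs1 held 4.

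Among the 7 mevalonate pathway genes, 5 rose in the Vgll3-labelled group and 2 did not pass, with a median log2 fold change of 0.77. Hmgcs1 encodes HMG-CoA synthase, the enzyme that joins acetoacetyl-CoA to a further acetyl-CoA, and its promoter is the one above with the SREBP consensus (ENSMUSG00000093930, mm10 chr13:119690379-119708260, protein-coding). It measured 119, 69.2, 85.0 and 107 CPM in Ccne1-labelled replicates 1 to 4, and 217, 220.3 and 200.0 CPM in Vgll3-labelled replicates 1 to 3. The groups did not overlap, and the 3 Vgll3-labelled libraries lay close together. The fold was 2.23, with a log2 fold change of 1.16 (SE 0.17, edgeR adjusted p = 0.000757). Mvk, mevalonate kinase, was 14.6, 10.1, 11.7 and 11 CPM against 15.2, 23.6 and 29.0 CPM, without overlap but with Vgll3-labelled replicate 1 just above Ccne1-labelled replicate 1 (edgeR log2 fold change 0.93, SE 0.22, adjusted p = 0.00685). Mvd, which decarboxylates mevalonate diphosphate, was 16.1, 10.9, 12.2 and 13.9 CPM against 19.1, 25.0 and 30.5 CPM, again without overlap (edgeR log2 fold change 0.91, SE 0.18, adjusted p = 0.00269).

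The other 4 genes of the branch differed less securely or did not pass. Fdps, farnesyl diphosphate synthase, was 105 ± 23.0 CPM and 178 ± 49.8 CPM (edgeR log2 fold change 0.77, adjusted p = 0.0276). Its groups overlapped, since Ccne1-labelled replicate 1 had 130.1 CPM and Vgll3-labelled replicate 1 had 125 CPM. Idi1, the isopentenyl diphosphate isomerase, was 43.9 ± 13.4 and 69.1 ± 6.87 CPM, and its edgeR adjusted p of 0.0484 lay at the threshold. Leaving out any of 4 libraries (Ccne1-labelled replicate 3 or any of the Vgll3-labelled ones) ended the call of Idi1, with adjusted p up to 0.143; for Fdps, leaving out Ccne1-labelled replicate 2 or 3 or Vgll3-labelled replicate 2 or 3 did so, with adjusted p up to 0.0909. Pmvk, phosphomevalonate kinase, had a log2 fold change of 0.31 (SE 0.18, edgeR adjusted p = 0.183) and Acat2, the cytosolic thiolase that makes acetoacetyl-CoA, one of -0.09 (SE 0.24, adjusted p = 0.763).

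Among the 11 genes from squalene to cholesterol, 6 were higher, 2 lower and 3 did not pass (median log2 fold change 0.61). Cyp51, lanosterol demethylase, had the largest rise of the 48 genes (ENSMUSG00000001467, mm10 chr5:4081145-4104746, protein-coding). It was 11.2, 7.08, 9.50 and 9.37 CPM in Ccne1-labelled replicates 1 to 4 and 66.5, 86.7 and 79.0 CPM in Vgll3-labelled replicates 1 to 3. The lowest Vgll3-labelled library was far above the highest Ccne1-labelled one. The fold was 8.39 (edgeR log2 fold change 3.07, SE 0.15, adjusted p = 4.19e-06), which placed Cyp51 at rank 218 from the top among the 13740 genes tested. None of its 6 nearest tested neighbours passed the test, with log2 fold changes of -0.20 to 0.70. These neighbours lay up to 699 kb away, with group means of at most 1.31 CPM for Mterf1a and Mterf1b. Among them Akap9, on the opposite strand and sharing 166 exon bases (3.8% of those of Cyp51), differed by 0.15 (adjusted p = 0.178). On the level per length (CPM per kilobase of exon), Cyp51 went from 2.10 to 17.5, that is, from a level in the Ccne1-labelled group above only Tm7sf2 (0.517) and Lss (2.08) among the 18 enzymes of both branches.

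Lss, lanosterol synthase, makes the substrate of Cyp51 (ENSMUSG00000033105, mm10 chr10:76531588-76557138, protein-coding). Its values were 29.4, 19.7, 17.2 and 23.2 CPM in the Ccne1-labelled and 46.1, 61.9 and 71.9 CPM in the Vgll3-labelled libraries. The groups did not overlap, and the log2 fold change was 1.42 (SE 0.21, edgeR adjusted p = 0.000886). The enzymes on either side of this pair rose less. Sqle, squalene epoxidase, a rate-controlling step, was 76.2 ± 9.11 CPM and 139 ± 23.5 CPM (edgeR log2 fold change 0.87, adjusted p = 0.000687). Msmo1, the methylsterol monooxygenase, was 76.2 ± 11.5 and 123 ± 8.08 CPM (log2 fold change 0.69), and Sc5d, sterol desaturase, 18.6 ± 3.22 and 29.9 ± 4.24 CPM (log2 fold change 0.69), both without overlap. Fdft1, squalene synthase, was 66.4 ± 7.85 and 94.4 ± 9.81 CPM (edgeR log2 fold change 0.51, adjusted p = 0.00393). It shares 18.3% of its exon bases with Ctsb on the opposite strand, which was lower (log2 fold change -1.58), and use of strand in the counting is not given in the sources used here.

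Of the 7 enzymes that act after Cyp51, Msmo1 and Sc5d were higher, 2 were lower and 3 did not pass. Ebp, the sterol isomerase, was 24.0, 22.6, 23.1 and 26.6 CPM in the Ccne1-labelled and 11.6, 11.6 and 14.2 CPM in the Vgll3-labelled group. The groups were far apart and each was narrow, with a log2 fold change of -0.95 (SE 0.11, edgeR adjusted p = 0.000132). Hsd17b7, the ketosterol reductase, fell from 73.5 ± 5.48 to 50.6 ± 8.14 CPM (edgeR log2 fold change -0.54, adjusted p = 0.00394). Dhcr7, which reduces dehydrocholesterol to cholesterol, had a log2 fold change of 0.22 (SE 0.15, adjusted p = 0.236), Nsdhl, the sterol dehydrogenase, 0.25 (SE 0.20, adjusted p = 0.323) and Tm7sf2, a sterol reductase, 0.61 (SE 0.31, adjusted p = 0.125). Without Vgll3-labelled replicate 1, Tm7sf2 passed (edgeR log2 fold change 0.85, adjusted p = 0.0407). It was counted at only 1.76 to 4.75 CPM and shares 12.1% of its exon bases with Vps51 on the same strand.

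Over both branches, 11 of 18 enzymes were higher and 2 lower, and 72.2% passed. Their summed level was 868, 610, 674 and 819 CPM in the Ccne1-labelled and 1033, 1278 and 1328 CPM in the Vgll3-labelled libraries. The enzymes also kept an order among libraries of one group. Ccne1-labelled replicate 1 was the highest of its group in 14 of the 18 enzymes and replicate 2 the lowest in 13. Vgll3-labelled replicate 1 was the lowest of its group in 16 and replicate 3 the highest in 13. In each group the library most often lowest was also the deepest, with 53610300 counts in Ccne1-labelled replicate 2 and 47504434 counts in Vgll3-labelled replicate 1; the part of depth was not tested. For the 11 oxysterol-binding genes no library of either group was highest in more than 5 or lowest in more than 5.

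**Figure D2:**
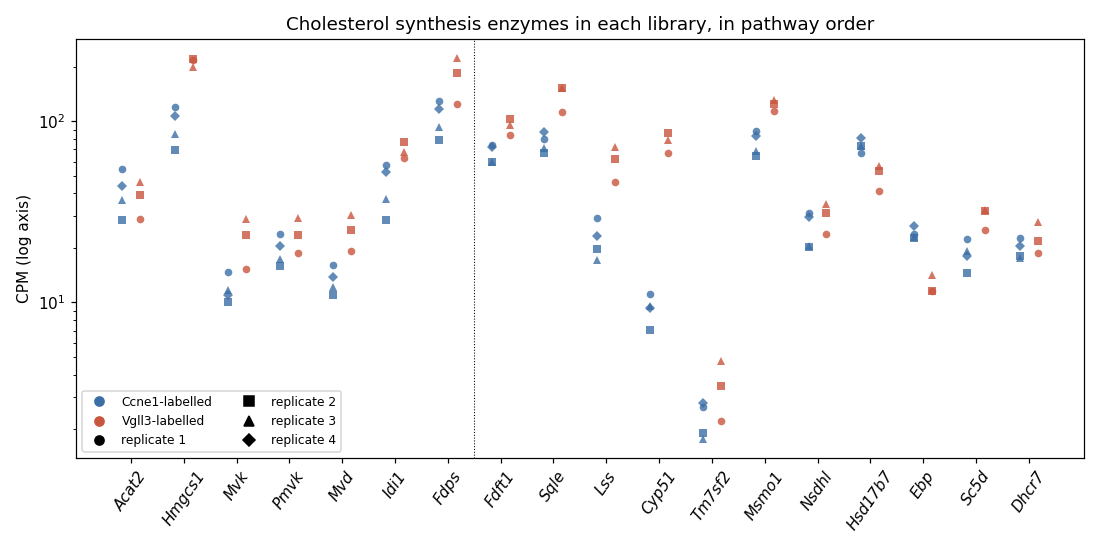
Level (y axis, CPM on a log axis) of the 18 cholesterol synthesis enzymes in every library, from acetoacetyl-CoA on the left to cholesterol on the right, with the mevalonate pathway left of the dotted line. The libraries of the 2 groups separate most at Cyp51 (7.08 to 11.2 against 66.5 to 86.7 CPM), while Ebp and Hsd17b7 are reversed.

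All 5 genes of SREBP control passed, 2 higher and 3 lower, where 51.9% of all genes tested passed. Insig1, a target of SREBP as well as its brake, rose with the synthesis enzymes (ENSMUSG00000045294, mm10 chr5:28071363-28078662, protein-coding). It was 48.3, 31.1, 35.7 and 43.7 CPM in the Ccne1-labelled libraries and 78.6, 89.5 and 94.7 CPM in the Vgll3-labelled ones. No library of one group reached the other (edgeR log2 fold change 1.14, SE 0.15, adjusted p = 0.000321). Its promoter above holds an E-box and an NF-Y box. Insig2, its paralog, was 30.9 ± 3.55 and 22.1 ± 3.04 CPM, lower without overlap (edgeR log2 fold change -0.48, adjusted p = 0.0100). With replicate number added to the edgeR model as a block, the call of Insig2 ended (adjusted p = 0.0603).

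The 2 SREBP genes moved in opposite directions. Srebf2, whose product SREBP-2 mainly drives cholesterol synthesis, was 325, 286, 274 and 285 CPM in the Ccne1-labelled and 377, 448 and 433 CPM in the Vgll3-labelled libraries. All of the latter lay above all of the former (edgeR log2 fold change 0.52, SE 0.09, adjusted p = 0.00129). Srebf1, whose product SREBP-1 mainly drives fatty acid synthesis and which is itself an LXR target, was 102, 116, 97.3 and 104 CPM against 73.0, 67.7 and 69.0 CPM. Here all Vgll3-labelled libraries were lower (edgeR log2 fold change -0.58, SE 0.08, adjusted p = 0.000296). Scap, the escort protein, differed little, at 75.8 ± 2.07 and 67.0 ± 1.12 CPM (edgeR log2 fold change -0.18, SE 0.06, adjusted p = 0.0333). Leaving out any library other than Ccne1-labelled replicate 2 ended the call of Scap (adjusted p 0.0608 to 0.0839), as did scaling by DESeq2 size factors (adjusted p = 0.0510).

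Sterol transport and esterification gave no common direction over 4 genes, with 1 higher, 1 lower and 2 that did not pass. Stard4, a soluble carrier that moves cholesterol between membranes and is a known SREBP target, was 27.1, 19.9, 23.7 and 24.1 CPM in the Ccne1-labelled and 37.6, 47.1 and 47.1 CPM in the Vgll3-labelled libraries. The groups did not overlap (edgeR log2 fold change 0.89, SE 0.12, adjusted p = 0.000354). Npc1, the lysosomal membrane protein that exports cholesterol taken up by endocytosis, was 96.9, 125, 108 and 103 CPM against 91.1, 71.2 and 70.8 CPM. It was lower without overlap, although Vgll3-labelled replicate 1 lay near Ccne1-labelled replicate 1 (edgeR log2 fold change -0.48, SE 0.12, adjusted p = 0.00844). Its soluble partner Npc2 had a log2 fold change of 0.07 (SE 0.11, adjusted p = 0.589), and Soat1, which esterifies cholesterol for storage, one of 0.20 (SE 0.12, adjusted p = 0.197).

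Both LXR genes fell, while the efflux transporter Abca1 rose. Nr1h3, which encodes LXR-alpha, was 2.77, 3.37, 3.34 and 3.20 CPM in the Ccne1-labelled and 0.643, 0.529 and 1.07 CPM in the Vgll3-labelled libraries. The groups did not overlap, and the level was 4.24-fold lower (edgeR log2 fold change -2.08, SE 0.31, adjusted p = 0.000582) on counts of 14 to 32 per Vgll3-labelled library. Nr1h2, which encodes the widely expressed LXR-beta, was 71.1, 75.3, 70.9 and 70.2 CPM against 45.2, 42.4 and 42.9 CPM. Each group was narrow and the 2 lay far apart (edgeR log2 fold change -0.72, SE 0.06, adjusted p = 3.79e-05); a pseudogene of Nr1h2 is annotated, so its count may be split. Per length, Nr1h2 stood at 21.4 and 13 CPM per exon kilobase, above Nr1h3 at 1.26 and 0.297.

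Abca1, which loads cholesterol onto apolipoprotein A-I and is a classic LXR target, was 64.4, 94.4, 65.6 and 73.0 CPM in the Ccne1-labelled and 261, 188 and 97.6 CPM in the Vgll3-labelled libraries. The groups did not overlap, but Vgll3-labelled replicate 3 lay close to Ccne1-labelled replicate 2. The log2 fold change was 1.29 (SE 0.32, edgeR adjusted p = 0.0141), and 1.60 (adjusted p = 0.000467) without Vgll3-labelled replicate 3. With no low-count filter the adjusted p was 0.0560. Abcg1, which exports sterol to HDL particles, was 1.17 ± 0.406 and 0.528 ± 0.296 CPM and did not pass (edgeR log2 fold change -1.16, SE 0.54, adjusted p = 0.0970), although its groups did not overlap. Mylip, an LXR-induced ubiquitin ligase that degrades lipoprotein receptors, had a log2 fold change of -0.25 (SE 0.10, adjusted p = 0.0614) and passed without Ccne1-labelled replicate 3 (adjusted p = 0.0272).

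Macrophages express LXR-alpha and both transporters. The macrophage markers summed to 59.7 to 80.5 CPM in the Ccne1-labelled and 12.9 to 24.4 CPM in the Vgll3-labelled libraries, a gap carried by Cd14. Of 10 markers 7 were tested and 1 passed, Cd14, at 59.3 and 6.39 CPM; without it the sums were 7.81 to 17.1 and 7.33 to 17.4 CPM, which overlap. Adgre1 reached at most 0.227 CPM in any library, and Csf1r averaged 1.08 and 1.33 CPM and did not pass. Cd68 averaged 5.03 and 3.96 CPM and Lyz2 2.72 and 2.40 CPM, and neither passed. These levels lay in the range of Nr1h3, which averaged 3.17 and 0.747 CPM, and Abcg1, which averaged 1.17 and 0.528 CPM. The part of macrophage RNA in the differences of Nr1h3, Abca1 and Abcg1 was not tested.

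**Figure D3:**
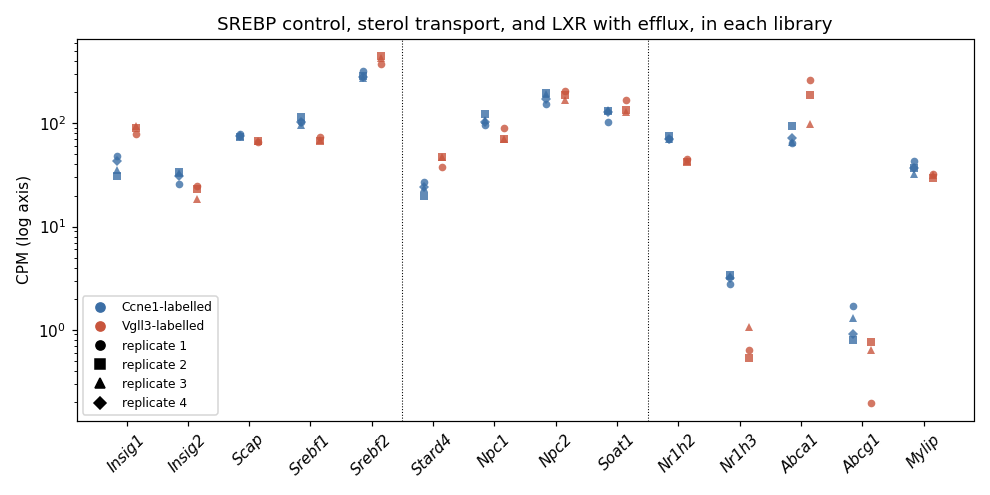
Level (y axis, CPM on a log axis) of the SREBP control, sterol transport, and LXR and efflux genes in every library, with dotted lines between these groups. Nr1h3 (2.77 to 3.37 against 0.529 to 1.07 CPM) and Nr1h2 are lower and Insig1 and Abca1 higher in the Vgll3-labelled libraries, and the 3 Vgll3-labelled values of Abca1 spread from 97.6 to 261 CPM.

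The oxysterol-binding family held the largest change of all. Of its 11 genes, 3 were higher, 5 lower and 3 did not pass, with a median log2 fold change of -0.24. A further member, Osbpl7, is not among the 48 genes and enters neither these counts nor the shares given later; it was lower too, at 13.4 ± 0.782 and 8.35 ± 0.681 CPM (edgeR log2 fold change -0.68, adjusted p = 0.000743). Osbp2, also known as ORP4, the closest relative of Osbp, was nearly absent from the Vgll3-labelled libraries (ENSMUSG00000020435, mm10 chr11:3703731-3863903, protein-coding). It was 27.9, 35.2, 30.7 and 39.0 CPM in Ccne1-labelled replicates 1 to 4 and 0.193, 0.340 and 0.167 CPM in Vgll3-labelled replicates 1 to 3. The first group rests on 613 to 1830 counts per library and the second on 9, 9 and 5 counts, so the second level is known only roughly. It was 145-fold lower (edgeR log2 fold change -7.18, SE 0.23, adjusted p = 1.02e-06), at rank 10 from the bottom among 13740 genes.

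Genes around Osbp2 differed far less. Morc2a, at 13.3 kb on one side, was 67.1 and 67.7 CPM (edgeR log2 fold change 0.01, adjusted p = 0.915). Farther off on that side Smtn was higher and Selenom lower, with log2 fold changes of 0.39 and -0.36. On the other side Dusp18 and Slc35e4 were lower, at -0.51 and -1.0, and 4921536K21Rik did not pass. Among the 6 nearest tested neighbours the log2 fold changes ran from -1.0 to 0.39.

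Osbp itself, the founding member, which carries oxysterol and cholesterol between the endoplasmic reticulum and the Golgi, was 60.6, 62.0, 67.6 and 58.0 CPM against 70.2, 83.2 and 68.7 CPM. All Vgll3-labelled libraries were higher, replicate 3 only just (edgeR log2 fold change 0.25, SE 0.09, adjusted p = 0.0382). Leaving out Ccne1-labelled replicate 1, 2 or 4 or Vgll3-labelled replicate 2 ended that call (adjusted p 0.0690 to 0.172). The promoters of this pair are set side by side because the pair parted in direction. The stretches are 200 bases just before the RefSeq start of Osbp at chr19:11965644-11965843 (plus strand) and before the outermost of 3 RefSeq starts of Osbp2 at chr11:3863904-3864103 (minus strand), with the same motifs in capitals.
Osbp: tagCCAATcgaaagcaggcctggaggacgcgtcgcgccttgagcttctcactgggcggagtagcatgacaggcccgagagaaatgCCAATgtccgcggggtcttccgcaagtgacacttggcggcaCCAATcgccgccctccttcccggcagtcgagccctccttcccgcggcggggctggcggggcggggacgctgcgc
Osbp2: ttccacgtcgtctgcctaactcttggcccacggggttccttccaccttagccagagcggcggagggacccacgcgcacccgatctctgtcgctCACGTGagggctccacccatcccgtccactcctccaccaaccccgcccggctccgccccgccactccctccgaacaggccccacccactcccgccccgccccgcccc
Osbp held 5 NF-Y boxes in its window, 3 of them in the stretch printed, and no E-box. Osbp2 held 1 E-box at this start and none of these motifs at its other 2 starts.

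The remaining members of the family among the 48 genes had fitted changes under 2-fold over all libraries; without Vgll3-labelled replicate 3, Osbpl3 reached a log2 fold change of -1.05. Osbpl3, an ORP active at contacts of the endoplasmic reticulum with the plasma membrane, was 95.1, 83.9, 88.2 and 103 CPM in the Ccne1-labelled and 37.1, 52.1 and 67.6 CPM in the Vgll3-labelled libraries. This gene was lower without overlap, with a wide spread in the second group (edgeR log2 fold change -0.83, SE 0.19, adjusted p = 0.00723). Osbpl8, which exchanges phosphatidylserine at the plasma membrane, was 31.5, 48.3, 41.1 and 38.2 CPM against 32.8, 30.4 and 24.9 CPM. Its groups overlapped, and its call (edgeR log2 fold change -0.44, SE 0.15, adjusted p = 0.0358) ended when any library other than replicate 1 of either group was left out (adjusted p 0.0611 to 0.103). Osbpl5, another phosphatidylserine exchanger, was 42.7 ± 2.86 and 32.8 ± 1.18 CPM (edgeR log2 fold change -0.38, adjusted p = 0.00317). Osbpl11 was 34.8 ± 1.66 and 29.5 ± 1.69 CPM (edgeR log2 fold change -0.24, adjusted p = 0.0270), a call that ended without any of Ccne1-labelled replicates 1 to 3 or Vgll3-labelled replicates 2 and 3.

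Osbpl1a, a cholesterol sensor of late endosomes, rose from 19.1 ± 0.807 to 25.8 ± 1.82 CPM (edgeR log2 fold change 0.44, adjusted p = 0.00202). Osbpl9 rose from 60.0 ± 4.63 to 78.5 ± 8.58 CPM (edgeR log2 fold change 0.39, adjusted p = 0.00733); it shares 9.0% of its exon bases with Nrd1 on the opposite strand. Osbpl2, Osbpl6 and Osbpl10 did not pass, with log2 fold changes of -0.11, 0.08 and -0.57. Osbpl10 was 4.55, 3.58, 3.40 and 4.54 CPM against 1.78, 2.34 and 4.01 CPM. Its Vgll3-labelled replicate 3 lay inside the range of the Ccne1-labelled libraries, and without that library Osbpl10 passed (edgeR log2 fold change -0.96, adjusted p = 0.00764).

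Per length, the family's make-up differed between the groups. Osbp2 made up 7.59% of the summed per-length level of the 11 genes in the Ccne1-labelled group and 0.0607% in the Vgll3-labelled group. The share of Osbp went from 20.1% to 27.3% and that of Osbpl9 from 12.5% to 18.6%, while Osbpl3 went from 15% to 9.60%. Osbp was the most abundant per length in both groups. These shares add up to a whole, so a fall in one raises the others.

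**Figure D4:**
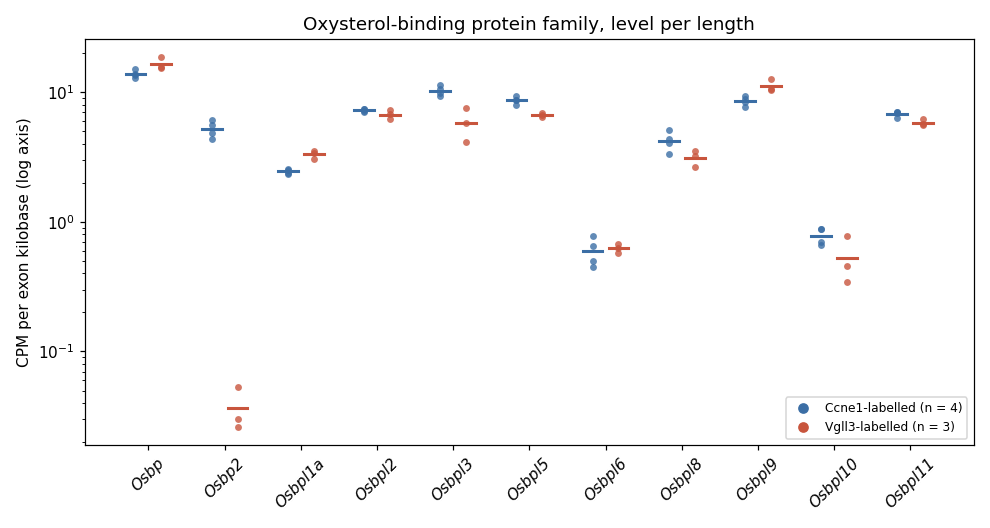
Level per length (y axis, CPM per kilobase of exon on a log axis) of the 11 oxysterol-binding genes, with 1 point per library and a bar at the mean of 4 Ccne1-labelled and 3 Vgll3-labelled libraries. Osbp2 drops from a mean of 5.22 to 0.0367, and the means of the other 10 genes differ by less than 2-fold between the groups.

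Fatty acid synthesis shares SREBP control, and 4 of its 5 genes were higher, with a median log2 fold change of 0.46. Scd2, a stearoyl-CoA desaturase, was the most abundant of the 48 genes per length, at 93.8 and 184 CPM per exon kilobase. It was 531, 495, 483 and 540.3 CPM in the Ccne1-labelled and 918, 1148 and 949 CPM in the Vgll3-labelled libraries. The groups were far apart (edgeR log2 fold change 0.97, SE 0.10, adjusted p = 6.42e-05). Acaca, acetyl-CoA carboxylase, was 120.1, 90.5, 99.9 and 118 CPM against 165, 176 and 143 CPM, also without overlap (edgeR log2 fold change 0.59, SE 0.12, adjusted p = 0.00274). Scd1, the paralog of Scd2, was 109, 82.2, 86.5 and 93.1 CPM against 105, 141 and 135 CPM. Its groups overlapped at replicate 1, and the call (edgeR log2 fold change 0.46, SE 0.13, adjusted p = 0.0149) ended without Vgll3-labelled replicate 2 (adjusted p = 0.0612). Fasn, fatty acid synthase, was 541 ± 68.6 and 714 ± 28.7 CPM (edgeR log2 fold change 0.40, adjusted p = 0.0109). Acly, which makes cytosolic acetyl-CoA from citrate, did not pass (249 ± 25.5 and 210.0 ± 14.8 CPM, log2 fold change -0.25, SE 0.10, adjusted p = 0.0581), and passed without Ccne1-labelled replicate 2 (adjusted p = 0.0273).

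Within 4 pairs of related genes the balance shifted. The share of Osbp2 in the per-length sum of Osbp2 and Osbp was 24.5%, 28.6%, 24.3% and 32.2% in Ccne1-labelled replicates 1 to 4 and 0.193%, 0.287% and 0.172% in Vgll3-labelled replicates 1 to 3. Srebf1 supplied 31.4% ± 2.20 (SD, n = 4) of the Srebf1 and Srebf2 sum in the Ccne1-labelled and 17.6% ± 1.92 (SD, n = 3) in the Vgll3-labelled group (exact permutation p = 0.0286). For Insig1 among both Insig genes the share was 58.7% ± 7.43 and 81.5% ± 3.39, and for Scd1 among both Scd genes 16.8% ± 1.30 and 12.4% ± 1.26. In each of the 4 pairs the groups did not overlap. Each two-sided exact permutation p was 0.0286 (0.0286 after Benjamini-Hochberg adjustment over 4). This is the smallest p that the 35 arrangements of 4 and 3 libraries can give. In the Osbp2, Srebf1 and Insig1 pairs the groups already separated for both genes, in opposite directions. Their shares had to separate too, so these p-values add nothing to the gene tests. Scd1 itself rose, and its smaller share goes with the larger rise of Scd2 in the same libraries.

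**Figure D5:**
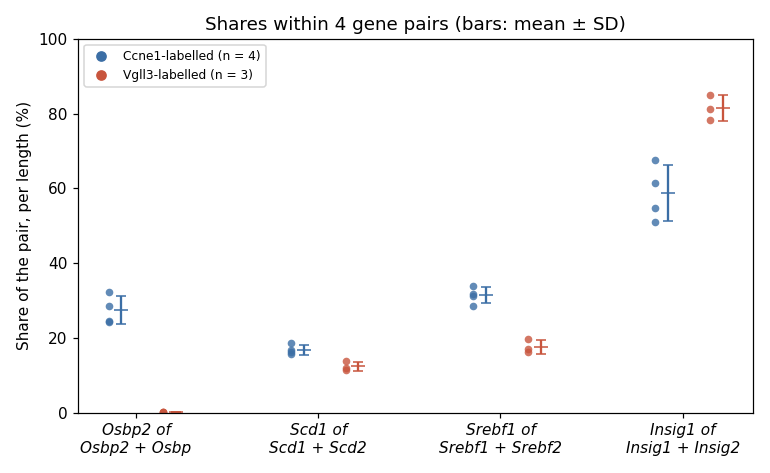
Share of 1 gene in the per-length sum of its pair (y axis, percent) in every library, with bars of mean ± SD for 4 Ccne1-labelled and 3 Vgll3-labelled libraries. Osbp2, Scd1 and Srebf1 hold smaller shares and Insig1 a larger share in the Vgll3-labelled libraries, with no overlap in any pair.

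Another 48 genes, from branches and partners of these pathways, were counted in the same way. Of them 44 were tested, 10 were higher, 13 lower and 21 did not pass. The share that passed, 52.3%, was near the 51.9% of all genes tested, and the median log2 fold change was 0.13. The other 4, Gramd1c, Ch25h, Cyp27a1 and Thrsp, had too few counts to be tested. Among 10 genes of the isoprenoid branches, which use mevalonate products for protein prenylation, dolichol and ubiquinone, 3 were higher and 2 lower. Fntb, a farnesyltransferase subunit, and Pdss1, of ubiquinone side-chain synthesis, had log2 fold changes of 0.77 and 0.72, and Rabggta, a subunit of the enzyme that prenylates Rab proteins, and Nus1, a subunit of dehydrodolichyl diphosphate synthase, -1.13 and -0.27. The branch enzymes that passed moved in both directions.

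Of 6 genes that cleave SREBP or degrade proteins bound to INSIG, 2 were higher and 3 lower. The proteases Mbtps1 and Mbtps2, which cut SREBP in turn in the Golgi, went opposite ways, with log2 fold changes of 0.20 (edgeR adjusted p = 0.0315) and -0.57 (adjusted p = 0.000925). The call of Mbtps1 ended without any of Ccne1-labelled replicates 1 to 3 or Vgll3-labelled replicates 1 and 2 (adjusted p 0.0631 to 0.132). The ubiquitin ligase Syvn1 was at 0.40 and the ubiquitin-conjugating enzyme Ube2g2 at -0.66.

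Among 15 further genes of sterol transport and oxysterol metabolism, 12 were tested, 2 were higher and 4 lower. Vldlr, a lipoprotein receptor, rose from 4.66 ± 1.66 to 24.0 ± 7.78 CPM (edgeR log2 fold change 2.35, SE 0.31, adjusted p = 0.000527). Gramd1b, which carries cholesterol from the plasma membrane to the endoplasmic reticulum, rose with a log2 fold change of 0.36. Cyp7b1, which hydroxylates oxysterols, fell from 5.72 ± 1.5 to 1.49 ± 0.754 CPM (edgeR log2 fold change -1.94, SE 0.36, adjusted p = 0.00190). Nceh1, which hydrolyses stored cholesterol esters, fell from 74.2 ± 6.66 to 27.8 ± 4.65 CPM (edgeR log2 fold change -1.42, SE 0.12, adjusted p = 3.3e-05).

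Of 3 LXR partners and targets, Rxra, the heterodimer partner of LXR, fell with a log2 fold change of -0.27 (adjusted p = 0.0380), and Rxrb and Lpcat3 did not pass. Leaving out any of Ccne1-labelled replicates 2 to 4 or Vgll3-labelled replicates 2 and 3 ended the call of Rxra (adjusted p 0.0619 to 0.110), as did scaling by DESeq2 size factors (adjusted p = 0.0521). Of 14 other fatty acid and triglyceride genes, 13 were tested, 3 were higher and 3 lower. Me1, which supplies NADPH, and the elongase Elovl5 rose with log2 fold changes of 0.47 and 0.36. Slc25a1, the mitochondrial citrate carrier, and Dgat1, which completes triglyceride synthesis, fell with log2 fold changes of -0.62 and -0.59.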

How the data were processed

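PolyA RNA of RFP-positive mouse sarcoma cells, extracted with TRIzol, was sequenced in 4 libraries labelled Ccne1 and 3 labelled Vgll3; groups and replicate numbers come from the titles. The authors deposited estimated counts per Ensembl gene, made with Salmon on mm10, per the submitters' processing notes; its version, the annotation and the use of strand are not given in these sources. All values were whole, so none needed rounding.

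The gene test was that of edgeR 4.0.16 in R 4.3.3 (filterByExpr, TMM, robust quasi-likelihood F test, model as the only term) and adjusted by Benjamini-Hochberg over 13740 genes at 0.05. SE is the absolute log2 fold change over the square root of F. Coordinates (1-based) and exon-union lengths come from a GENCODE annotation of GRCm38, the same build as mm10; the table's IDs matched for 35493 of 35727 genes. Chi-square tests of replicate pairs gave 11.7 to 88.9 for each degree of freedom, so none was a copy of another. The biological coefficient of variation was 20.7%. On simulated data, in which far fewer genes changed than here, the test recovered 43.3% of seeded 1.5-fold changes. It recovered 64.2% of 2-fold and 80.3% of 4-fold changes, and 3.1% of its calls were false. A gene that did not pass may therefore still differ.

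The genes and lists were chosen with earlier results of these data known. All 48 genes could be named; values per library are given for up to 3 called genes of largest absolute change per role, and for Srebf1, Srebf2, Osbp and, chosen after its values were seen, Osbpl10. Of each other list, up to 2 called genes per direction are named, also the top marker of each marker list. Csf1r, Adgre1, Cd68, Lyz2, Col1a1, Col1a2, Thy1, Fap, Osbpl7 and neighbouring or overlapping genes were added after their values were seen. Alternatives were DESeq2 1.42.0 size factors and its Wald test, limma-voom (limma 3.58.1), no low-count filter, a replicate block, and each library left out; for shares, also no division by length; for motifs, only the bases before the start.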

Additional observations from a re-analysis of the deposited data

How the results depend on the processing

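Over 12 alternatives no called member changed direction, and 24 of the 35 called members kept their call in all of them; over all members and alternatives, 46 calls were lost and 5 gained. The sign of Acat2, Npc2 and Osbpl6, which did not pass, changed in some. With no low-count filter, Idi1, Fdps, Scap, Abca1, Osbp and Osbpl11 lost their call (edgeR adjusted p 0.0560 to 0.127). Members called higher ranged from 16 to 22 and lower from 9 to 14, and all genes called from 4841 to 7446. Deviations of same-numbered libraries from their group means did not correlate positively (-0.207, -0.200 and -0.121). The other pairs of libraries across groups gave -0.0445 to 0.216. Such values constrain each other within groups of 4 and 3, so they cannot decide whether the numbers pair libraries. With the replicate block 4841 genes were called, 16 members higher and 9 lower, and 6 of the other sterol and lipid genes higher instead of 10; the block left fewer residual degrees of freedom. With 1 library left out, the share differences, Vgll3-labelled minus Ccne1-labelled in percentage points, ranged from -28.2 to -25.6 for Osbp2, from -5.09 to -3.79 for Scd1, from -14.9 to -12.9 for Srebf1 and from 20.2 to 25.8 for Insig1, where the exact permutation p cannot go below 0.0667 or 0.100. Levels under about 1 CPM (Osbp2 and Nr1h3 in the Vgll3-labelled libraries, Abcg1) rest on few counts, and their folds are the least certain.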
